A study of Gallus gallus with 2 samples.

Results

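FOXO1 was mapped on the chromatin of primary chicken myoblasts in early differentiation, and 806 of the 3317 listed peaks (24.3%) lay on chromosomes 11 to 20, the larger chicken microchromosomes. Membership was decided by chromosome name alone. These 10 chromosomes made up 13.1% of the length covered by peaks. There was 1 FOXO1 ChIP library, made with a Santa Cruz FOXO1 antibody, and 1 input DNA library made without antibody. Both came from embryonic thigh muscle taken at 11 days, from myoblasts purified by repeated plating, grown in medium with 20% fetal bovine serum and moved to 2% horse serum for differentiation, with penicillin and streptomycin in both media. The time in differentiation medium and the number of embryos are not given in the labels, and a peak list holds no expression value by which the myoblast label could be checked. With 1 library on each side, no value has a replicate check, and tests describe this peak list rather than conditions.

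FOXO1 is a forkhead transcription factor that insulin and growth factor signalling keeps out of the nucleus. In skeletal muscle it is known for turning on genes of protein breakdown in atrophy and for roles in myoblast fusion and fibre type. Microchromosomes are the small chromosomes typical of birds; they are rich in genes, CpG and GC and recombine often. The label "larger" held for 9 of the 10 chromosomes, which were covered over 9.80 to 19.8 Mb, against 2.17 to 6.60 Mb on chromosomes 21 to 28. Chromosome 16, which carries the chicken major histocompatibility complex and the ribosomal RNA genes, was covered over only 0.448 Mb. Covered length is the highest listed peak end on a chromosome.

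Peaks on chromosomes 11 to 20 were dense. They numbered 6.17 per Mb (Poisson 95% interval 5.75 to 6.61), against 2.51 per Mb (2.38 to 2.64) on the large chromosomes 1 to 5, a ratio of 2.46 (exact 95% interval 2.26 to 2.68; exact two-sided binomial test, adjusted p = 1.81e-84 over 2 comparisons). Set against chromosomes 21 to 28, which held 9.85 per Mb (8.90 to 10.9), they were sparser, with a ratio of 0.627 (0.555 to 0.709; exact binomial, adjusted p = 1.46e-13). Neighbouring peaks are not independent, so these p-values are too small. With the intervals widened by the variance of peak number between 1 Mb windows (2.83 times the mean on chromosomes 11 to 20), the ratios ran from 2.15 to 2.82 and from 0.513 to 0.765. That variance was taken around each chromosome's own mean. Spread between chromosomes of a class is not in it, so these intervals may still be too narrow.

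The step from one size class to the next was not sharp. Chromosome 11 had 4.12 peaks per Mb, fewer than the 4.90 of chromosome 10 just outside the range, and chromosome 20 had 6.51, close to the 6.52 of chromosome 21. Leaving out chromosome 16, the members ranged from 4.12 to 9.19 per Mb. That range held 3 of the 8 chromosomes from 21 to 28 (21, 22 and 24) and 3 of the 5 chromosomes from 6 to 10, but none of chromosomes 1 to 5, the densest of which was chromosome 5 at 3.50 per Mb. Chromosomes 23 and 25 to 28 lay above it, with 10.8 to 14.8 per Mb.

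**Figure D1:**
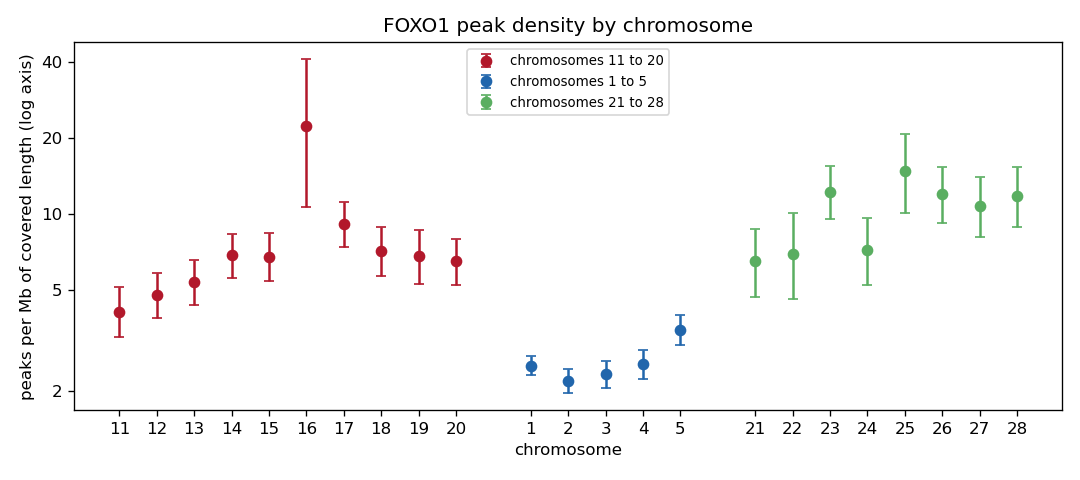
Peaks per Mb of covered length (log axis) for each chromosome of 3 size classes; points are densities and bars are Poisson 95% intervals. Chromosomes 11 to 20 sit between 4.12 and 22.3 per Mb, all above chromosomes 1 to 5; without chromosome 16 they reach 9.19, which takes in chromosomes 21, 22 and 24.

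Density differed among the members. Chromosome 17 was dense, with 96 peaks at 9.19 per Mb (Poisson 95% interval 7.44 to 11.2), against 5.91 on the other 9 chromosomes together, a ratio of 1.55 (exact binomial, adjusted p = 0.000595 over 10 tests). Chromosome 16 had 10 peaks at 22.3 per Mb (10.7 to 41.0), a ratio of 3.65 (exact binomial, adjusted p = 0.00196). Its covered length of 0.448 Mb ends at its own last listed peak, so the length used in that test depends on the few peaks tested. Chromosome 11 was sparse, with 79 peaks at 4.12 per Mb (3.26 to 5.14), a ratio of 0.632 (exact binomial, adjusted p = 0.000526). Chromosome 12 had 95 peaks at 4.81 per Mb (3.89 to 5.88), a ratio of 0.749 (exact binomial, adjusted p = 0.0197), but its widened interval, 0.523 to 1.07, held 1. The widened intervals of chromosomes 11, 16 and 17 did not (0.428 to 0.934, 1.28 to 10.4 and 1.09 to 2.23). Chromosome 16 has no full 1 Mb window, so its widened interval rests on the variance found on the other 9 chromosomes.

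The other 6 chromosomes missed the threshold. Their densities were 5.41 per Mb on chromosome 13, 6.88 on 14, 6.80 on 15, 7.16 on 18, 6.83 on 19 and 6.51 on 20, with adjusted p from 0.302 to 0.573 in the exact binomial test. Over the 10 chromosomes, density and covered length had a Pearson correlation of -0.90 and a Spearman correlation of -0.85, and of -0.86 and -0.80 over the 9 without chromosome 16. This is a description: length enters both measures and all points share 1 pair of libraries. A score from the caller of at least 10 was given to 132 members (16.4%), near the 17.8% of all listed peaks. Among those 132, no chromosome passed the adjusted exact binomial test, and 3 passed without adjustment.

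The median distance from one peak to the next was 51.3 kb on chromosome 17 and 139.8 kb on chromosome 11. The longest stretch with no peak was also on chromosome 11, 2.03 Mb between 10857276 and 12889974. On chromosome 20 it was 1.60 Mb, between 3091709 and 4694909, and on chromosome 13 it was 1.54 Mb, between 4353345 and 5894266. Chromosome 16 had the shortest, 0.217 Mb.

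Most peaks on chromosomes 11 to 20 were low. ChIP tags per peak ran from 5 to 130, with a median of 7 and quartiles of 7 and 9. Chromosomes 1 to 5 had the same median, and chromosomes 21 to 28 had 8. Of the 806, 693 (86.0%) held 6 to 9 tags, and 357 (44.3%) had the lowest listed score of 7. That score was about as common elsewhere, with 44.2% on chromosomes 1 to 5 and 40.1% on chromosomes 21 to 28. By counting error, 7 tags could stand for 2.81 to 14.4 (Poisson, 95%), and most peaks cannot be ranked at this depth. At least 10 tags were found in 111 members (13.8%, exact 95% interval 11.5 to 16.3), where 14.8% of all listed peaks had as many, and in 15.3% on chromosomes 1 to 5 and 19.8% on chromosomes 21 to 28. The members' share was near that of the whole list.

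Scaled input, which is input brought to ChIP depth, had a median of 0.60 tags per peak on chromosomes 11 to 20 (interquartile range 0.400 to 0.800, range 0 to 23.4). The medians of chromosomes 1 to 5 and 21 to 28 were also 0.60. In unscaled input tags, recovered from the listed folds, the median was 11 (interquartile range 8 to 15). The window over which the caller counted input is not stated, so these tags may come from more than the peak itself. The median fold over input, 13.21 (interquartile range 9.44 to 18.87), was the same in all 3 classes, a tied value of 7 ChIP tags over 10 input tags. Pooled over peaks, ChIP tags exceeded scaled input 11.4 times on chromosomes 11 to 20 (exact 95% interval 11.1 to 11.8, counting error only), against 12.9 (12.6 to 13.1) on chromosomes 1 to 5 and 10.8 (10.4 to 11.3) on chromosomes 21 to 28. Among peaks under 20 tags the 3 pooled folds were closer: 12.2 (11.9 to 12.6) on chromosomes 11 to 20, 12.8 (12.5 to 13.1) on 1 to 5 and 12.4 (11.8 to 12.9) on 21 to 28. These differences between classes were not tested, since peaks are not replicates.

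With counting error in both libraries, 463 members (57.4%, exact 95% interval 53.9 to 60.9) kept a fold above 4, which the caller required, at the lower end of their 95% interval. This end is called the lower fold limit. All peaks were listed because their ChIP tags were high over input, so folds and these limits lean upward. The intervals make no allowance for that choice. Over the whole list it was 60.3%, so the members' share was near the background. A lower limit above 8 was reached by 98 members (12.2%), where 13.3% of all peaks did.

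ChIP tags around the peaks were denser on the smaller chromosomes. In the 10 kb around each peak, the ChIP library held a median of 0.625 tags per peak width on chromosomes 11 to 20 (interquartile range 0.477 to 0.808), against 0.518 on chromosomes 1 to 5 and 0.684 on chromosomes 21 to 28. The part of local tags in peak density was not tested. Median folds over the local 10 kb were 12.1 on chromosomes 11 to 20, 14.8 on 1 to 5 and 11.8 on 21 to 28. A cut at 12 kept 422 of the 806 members and a larger share of peaks on chromosomes 1 to 5, which by itself lowers the ratio. Counting only peaks at least 12-fold over their local 10 kb, the members were 1.78 times as dense as chromosomes 1 to 5 (exact binomial, adjusted p = 1.58e-21) and 0.659 times as dense as chromosomes 21 to 28 (adjusted p = 3.01e-06).

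**Figure D2:**
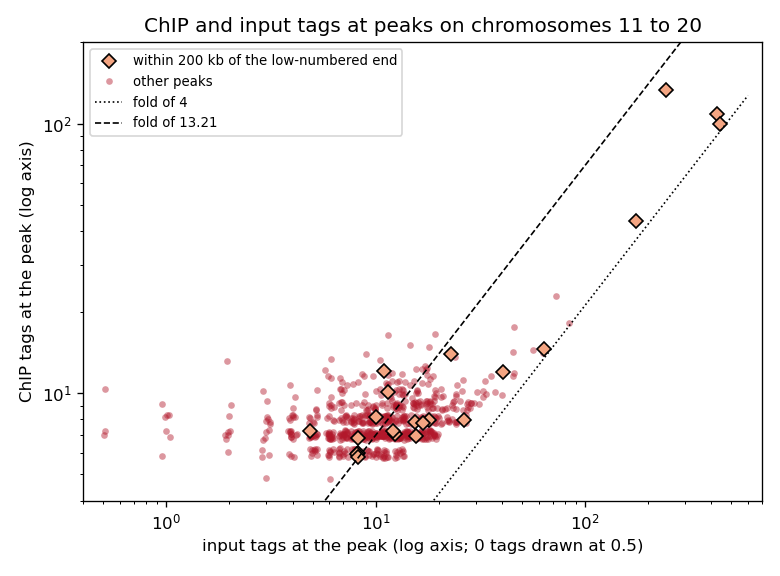
Input tags and ChIP tags at each of the 806 peaks on chromosomes 11 to 20 (both log axes, points moved slightly at random so that ties can be seen, 0 input tags drawn at 0.5). Diamonds are the 22 peaks within 200 kb of the low-numbered end; the lines mark a fold of 4 and the median fold of 13.21, and the 4 points on the upper right hold 45 to 130 ChIP tags.

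Chromosomes differed in input as well. Median input was 13 tags on chromosome 13 (quartiles 10 and 17), against 10 to 11.5 on the other members apart from chromosome 16, which had 14. The median fold of chromosome 13 was 10.90. Only 39 of its 96 peaks (40.6%) had a lower fold limit above 4, where 60.3% of all listed peaks did. At the other end, chromosome 18 had a median of 10 input tags and a median fold of 14.68, and 65% of its peaks passed that limit, as did 65.1% on chromosome 15 and 64.6% on chromosome 11. Median ChIP tags were 7 or 8 on all 10 chromosomes. The lowest pooled fold was 8.67 on chromosome 19 (exact 95% interval 7.98 to 9.41), which holds the 3 peaks with most tags.

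Few members stood out by tag number. Only 5 peaks held 20 ChIP tags or more, and they took 5.96% of the members' 6758 ChIP tags and 12.1% of their 11150 input tags. On chromosome 19, the peak at 66546 to 66748 held 130 ChIP tags against 12.5 scaled input tags (235 recovered), a fold of 10.44 (95% interval 8.36 to 13.0). It stood 51.43-fold over its local 10 kb. The pair at 170330 to 170532 and 170944 to 171146 held 102 and 104 ChIP tags against 23.4 and 21.8 scaled input tags, with folds of 4.36 and 4.76. They stood 9.02-fold and 9.12-fold over their surroundings, which are partly each other.

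On chromosome 11, the first listed peak, at 158 to 360, held 45 ChIP tags against 9.50 scaled input tags, a fold of 4.74 (3.34 to 6.61). Chromosome 20 had its tallest at 5838492 to 5838694, with 22 ChIP tags against 4 scaled input tags, a fold of 5.46 (3.24 to 8.88). The first 4 of these peaks all lay within 200 kb of the low-numbered end of their chromosome and were the only members with 100 or more input tags. Of the 5, only the peak with 130 tags had a lower fold limit above 4, where 60.3% of all listed peaks did.

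The 20 members with the smallest listed p-values over input fell into 3 sets by input. The 4 with 100 or more input tags were those at the ends of chromosomes 11 and 19. Another 10 had 3 or fewer input tags, so their folds were high but poorly known. Chromosome 20 had one of 13 ChIP tags over 2 input tags (2448586 to 2448788), with a ratio of 123 (27.8 to 1119.8), and another of 9 over 1 (9125279 to 9125481), with a ratio of 169.9 (23.5 to 7446). On chromosomes 11, 12 and 19, the peaks at 4491620 to 4491822, 5041407 to 5041609 and 8949701 to 8949903 each had 8 ChIP tags against 1 input tag. Chromosome 14 held 10 against 3 at 7001179 to 7001381, and chromosome 12 held 9 against 2 at 1922385 to 1922587.

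Against 0 input tags, set to a floor of 3 per peak, the fold was at least 62.9-fold higher than input on chromosome 11 at 19142041 to 19142243 (10 ChIP tags), 19.3 kb from the highest listed position. It was at least 44.0-fold higher on chromosome 17 at 8734670 to 8734872 and on chromosome 20 at 5569354 to 5569556, each with 7 ChIP tags. These bounds take the ChIP tags as counted, with no allowance for their own error. With counting error and no floor, the lower fold limits were smaller, 42.3 on chromosome 11 and 27.2 on chromosomes 17 and 20. The listed folds of these peaks, up to 377.49, rest on the caller's own value for 0.

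The remaining 6 of the 20 had 4 to 12 input tags, nearer to the median of 11. On chromosome 15 the peak at 11415167 to 11415369 held 16 ChIP tags against 12 input tags, a fold of 25.17 (11.2 to 58.3). Chromosome 11 had a peak of 14 tags at 1457780 to 1457982, with a fold of 29.36 (11.8 to 76.9), and one of 13 tags at 7219644 to 7219846, with a fold of 40.89 (14.5 to 131). On chromosome 18 at 6561114 to 6561316, 11 tags gave 51.90-fold (15.4 to 224). The peaks of chromosome 15 at 1890100 to 1890302 and chromosome 17 at 7210059 to 7210261 each had 12 tags and a fold of 37.75 (13.1 to 123). All 6 had a lower limit above 8, where 13.3% of all listed peaks did. They were picked by p over input, which rests on the same tags, so this was largely set by the choice. These 6 stood 12.35-fold to 39.21-fold over their local 10 kb.

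The other peaks with most tags on their chromosome were modest. Chromosome 14 had 19 ChIP tags against 85 input tags at 14293918 to 14294120 (4.22-fold), and chromosome 17 had 15 against 63 at 63606 to 63808 (4.49-fold). Chromosome 12 had 14 against 43 at 2278778 to 2278980 (6.15-fold). Input was high at these 3, and none had a lower fold limit above 4, where 60.3% of all listed peaks did. Chromosome 13 had 12 against 9 at 17018715 to 17018917 (25.17-fold), where the lower limit was 9.73. Highest by fold were, on chromosome 13, the peak at 8274215 to 8274417 (8 tags against 4, 37.75-fold), on chromosome 15 that at 1166197 to 1166399 (8 against 2, 75.50-fold) and on chromosome 18 that at 10025120 to 10025322 (7 against 1, 132.12-fold).

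Chromosome 16 gave 10 peaks. Of these, 8 lay within 170.4 kb, from 59427 to 229821, and 2 at the highest listed positions, 446901 to 447103 and 448278 to 448480. Their ChIP tags ran from 6 to 12 and their input tags from 8 to 32. The tallest, at 87115 to 87317, had 12 ChIP tags against 11 input tags, a fold of 20.59 (8.32 to 51.5). Their tags lay within the range of the other members and their median fold was 11.16.

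Taken over the 10 chromosomes together, peaks lay toward the chromosome ends, most of all on chromosomes 11 and 13. The first and last 10% of covered length on each chromosome held 215 of the 806 members (26.7%), 1.33 times the 20% given by length (exact 95% interval 1.18 to 1.49, widened 1.10 to 1.62; exact two-sided binomial p = 5.39e-06). Cut into 10 equal parts, the last held 124 and the first 91, while the third held 48 and the fourth 54. The fifth, in the middle, held 92, about as many as the first. With the highest listed peak of each chromosome counted, the share was above 20% on 8 of the 10 chromosomes. On chromosomes 15 and 17 it was only 22.1% and 22.9%. The share was 44.3% on chromosome 11 and 37.5% on chromosome 13, and elsewhere from 12.9% on chromosome 20 to 29.9% on chromosome 19. Chromosomes 11 and 13 gave 35 of 79 and 36 of 96 peaks. No ratio was computed without both, so the excess may rest largely on them and is not shown for the other chromosomes. The highest listed peak sets the covered length and so always falls in the last 10%. Without that peak on each chromosome the ratio was 1.29 (exact binomial p = 7.84e-05). These end parts held 25.3% of peaks on chromosomes 1 to 5 (23.1 to 27.6) and 24.1% on 21 to 28 (20.0 to 28.6), intervals that overlap that of the members (23.6 to 29.9).

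**Figure D3:**
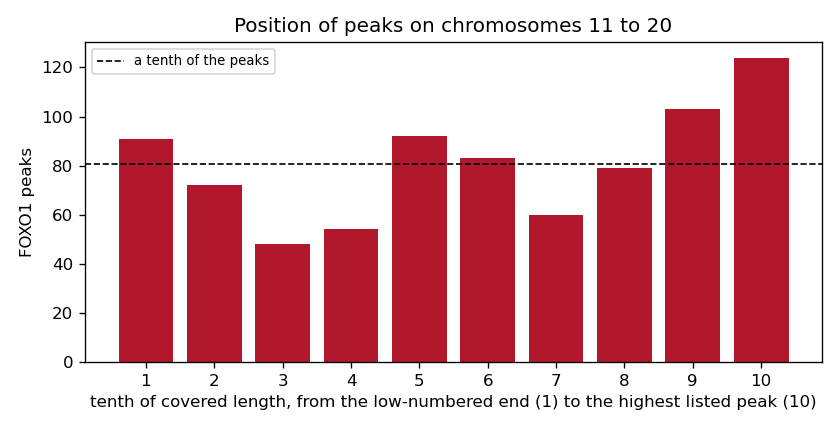
Number of FOXO1 peaks in each of 10 equal parts of covered length, summed over chromosomes 11 to 20; the dashed line is 10% of all 806. The last (124) is highest and the third (48) lowest.

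Chromosome 11 had the clearest pattern of this kind. Its first 3 Mb held 29 of its 79 peaks, 9.67 per Mb, and the part beyond 18 Mb held 15, 12.9 per Mb. The 15 Mb between held 35, only 2.33 per Mb, which is close to the density of chromosomes 1 to 5. These limits were chosen after the values were seen. Median input was 13, 10 and 9 tags in the first, last and middle stretch, and median folds were 13.07, 13.73 and 16.18.

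The first Mb, counted over the 9 chromosomes longer than that, held 71 of 796 peaks (8.92%), 1.29 times its 6.92% of length (exact 95% interval 1.02 to 1.61; exact binomial p = 0.0301). The widened interval, 0.888 to 1.87, held 1. The first Mb of chromosome 13 was already known to be dense when this test was chosen, so the p-value is not independent evidence of an excess. The call was lost without chromosome 11 (ratio 1.18, exact binomial p = 0.193), without chromosome 13 (1.12, p = 0.377) and without chromosome 17 (1.26, p = 0.0690), which had 10, 15 and 12 peaks there. Chromosomes 18 and 12 had 2 and 3. On chromosomes 1 to 5 the ratio was 3.83 (48 peaks), and on chromosomes 21 to 28 it was 0.977 (77 peaks); the difference between classes was not tested.

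The 22 peaks in the first 200 kb, on 9 chromosomes, had a higher median input than other members. Their median was 16 input tags (interquartile range 10.2 to 37.2), against 11 (8 to 15) for the other 784, and their median fold was 10.30, against 13.21. Local ChIP tags were higher too, with medians of 0.85 and 0.622 per peak width. Chromosome 17 had a second peak there at 128930 to 129132, with 12 ChIP tags against 41 input tags. On chromosome 15, a peak at 25245 to 25447 had 14 against 22, a fold of 12.01 (5.68 to 24.6), so not every tall peak near an end had a low fold. What raised the input there was not tested.

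In full windows of 1 Mb, chromosomes 11 to 20 held a median of 5 peaks (interquartile range 3 to 9, range 0 to 19, 126 windows). The median was 2 on chromosomes 1 to 5 and 9 on chromosomes 21 to 28. Of the 126 windows, 6 were empty (4.76%), on 5 chromosomes, against 15.0% on chromosomes 1 to 5 and 0% of 37 windows on chromosomes 21 to 28. At least 12 peaks were found in 15 windows (11.9%), against 0.832% and 27.0%. These 15 windows took 206 members (25.6%) in 11.5% of the length. Chromosome 17 had 4 of them, chromosome 18 had 3, chromosomes 13, 14 and 20 had 2 each, and chromosomes 11 and 19 had 1 each. Windows were ranked by the same values, so these numbers are a description.

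**Figure D4:**
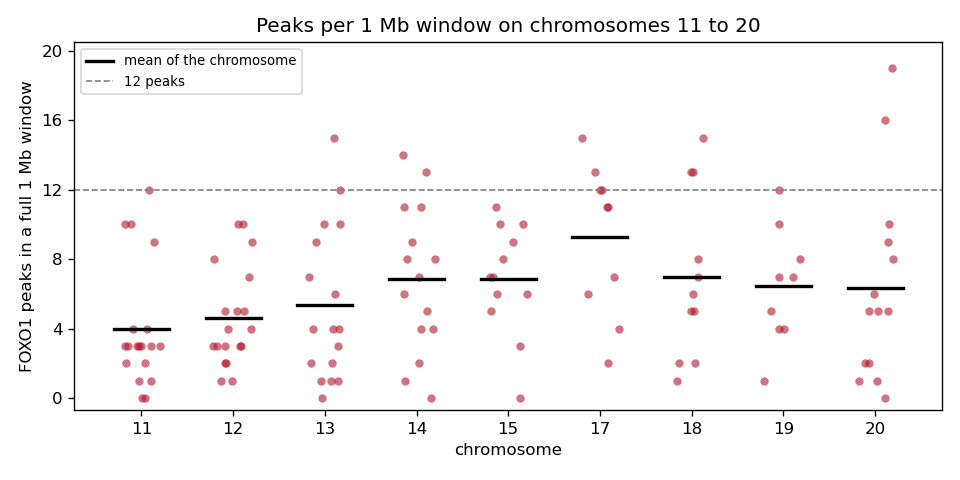
Peaks in each full 1 Mb window of 9 chromosomes (points, spread sideways for clarity); black lines are means over the full windows and the dashed line marks 12 peaks. Chromosome 16 has no full window; chromosome 20 holds the highest window (19) and also an empty one.

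The densest window was on chromosome 20 from 5000001 to 6000000, with 19 peaks where the chromosome averaged 6.51 per Mb. The windows on either side held 1 and 5. Its peaks ran from 5102241 to 5922668, at a median gap of 28.4 kb. ChIP tags ranged from 6 to 22 with a median of 8, and scaled input from 0 to 4 with a median of 0.70. The lowest fold was 4.19 and the median 12.58. The 3 peaks with most input lay within 23.6 kb near its end, at 5832296 to 5832498, 5838492 to 5838694 and 5855659 to 5855861. They held 14, 22 and 12 ChIP tags against 63, 76 and 44 input tags. Being picked by input, they would tend to have lower folds by that choice alone. Their pooled fold was 4.95 (exact 95% interval 3.52 to 6.84), against 13.0 (10.4 to 16.1) for the other 16, and their local ChIP tags were 2.86 to 3.89 per peak width, against 0.435 to 1.09. None of the 3 had a lower fold limit above 4, where 10 of the other 16 did, near the 60.3% of all listed peaks.

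Apart from these 3, the tallest peaks of that window were at 5740108 to 5740310, with 16 tags and a fold of 15.10 (7.32 to 30.7), and at 5180130 to 5180332, with 15 tags and a fold of 18.87 (8.60 to 41.4). Next came 5482775 to 5482977, with 11 ChIP tags against 34 input tags (6.11-fold), and 5922466 to 5922668, with 10 against 12 (15.73-fold). The other 12 held 6 to 9 tags. A fold of at least 8 was reached by 703 of the 806 members (87.2%), where 88.8% of all listed peaks reached it. Among those peaks the window still held 15 peaks and was the densest of the members. With windows started at 0.5 Mb, the densest was on chromosome 17 from 5500001 to 6500000, with 17.

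The first Mb of chromosome 13 held 15 peaks, where the chromosome averaged 5.41 per Mb, and the next Mb held 4. The 15 ran from 149095 to 989751. They were even in height: 14 held 7 to 9 ChIP tags, and the last, at 989549 to 989751, held 12 against 11 input tags, a fold of 20.59 (8.32 to 51.5). Scaled input ranged from 0.200 to 1.20 with a median of 0.70, and recovered input from 4 to 23. The lowest score, 7, was given to 9 of the 15. The lower fold limit exceeded 4 in 7 of the 15, where it did in 57.4% of members and 60.3% of all listed peaks. The middle of the window was closest packed, with 8 peaks between 392915 and 554503. The nearest pair, at 528251 to 528453 and 528714 to 528916, was 0.260 kb apart and held 7 and 8 tags. The pooled fold was 11.7 (exact 95% interval 9.18 to 14.9), where chromosome 13 as a whole had 10.9 (9.91 to 11.9).

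**Figure D5:**
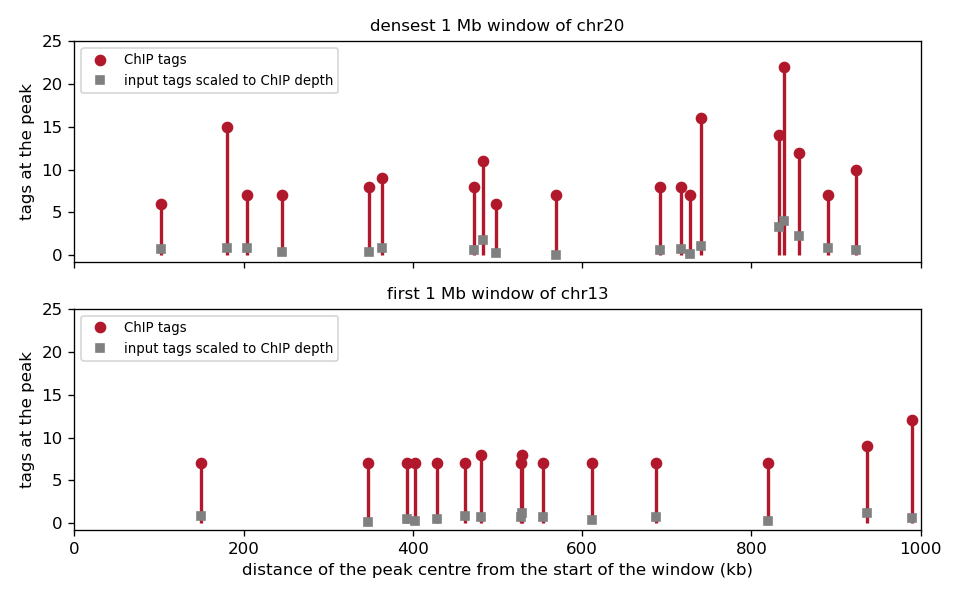
ChIP tags (red) and input tags scaled to ChIP depth (grey) at each peak, by distance from the start of the window, for the window of 19 peaks on chromosome 20 and the first Mb of chromosome 13. Peaks on chromosome 20 reach 22 ChIP tags with scaled input up to 4; on chromosome 13 they reach 12 with scaled input up to 1.20.

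The other dense windows held 12 to 16 peaks. Chromosome 20 had 16 between 10000001 and 11000000, chromosome 17 had 15 between 7000001 and 8000000, and chromosome 14 had 14 between 12000001 and 13000000 next to an empty window. On chromosome 18, adjoining windows held 13 and 15, so 28 of its 80 peaks (35%) lay in the 2 Mb from 9 to 11 Mb. Pooled folds of the 15 windows ran from 9.17 (7.66 to 10.9) on chromosome 20 at 5 to 6 Mb to 16.8 (12.7 to 22.3) on chromosome 19 at 8 to 9 Mb. On chromosome 19, 10 of those 12 peaks had a lower fold limit above 4, where 60.3% of all listed peaks did. Among the other dense windows it ranged from 5 of 12 on chromosome 13 at 16 to 17 Mb to 10 of 13. That highest share was found on chromosome 14 at 6 to 7 Mb and chromosome 18 at 9 to 10 Mb. With so few peaks per window, these shares are imprecise.

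The 206 peaks in windows of 12 or more had a median of 7 ChIP tags and 11 input tags, as did the other 600. Median folds were 13.07 and 13.21, and 58.7% and 57.0% had a lower fold limit above 4, near the 60.3% of all listed peaks. Local ChIP tags were higher in the dense windows, with medians of 0.726 and 0.601 per peak width. Neighbouring peaks count toward each other's surroundings, and this was not separated.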

How the data were processed

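One peak list was used, made by the authors from 1 ChIP library (2207278 tags) against 1 input library. The submitters' processing notes name Bowtie2 2.1.0 and HOMER 4.7. Per the file headers, peaks of 203 bp were called with findPeaks in factor style, with a false discovery rate of 0.00100 that set 7 tags, at most 1 tag per bp, and a 4-fold excess and p of 0.000100 over input and over the local 10 kb. The genome build is not given in the sources used here, so coordinates are as listed and no gene or sequence is assigned.

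Total tags per peak are deposited as raw counts. The normalized tag count (not used further) and the scaled input tags are signals that the authors scaled. The focus ratio is a fraction, and the score a score, both deposited by the authors. The folds are ratios by the authors, and the p-values over input were deposited by the authors with no adjustment.

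Input tags were recovered as total tags divided by fold, in steps of 0.053. The window over which the caller counted input is not stated and may be wider than the peak. Folds and their intervals take the listed scaling as given. All 3300 peaks whose printed fold resolves a step came within 0.1 of a whole tag, and the other 17 were rounded. Values under 1 step were taken as 0 tags and set to a floor of 3 where a fold was needed. Fold intervals and shares are exact (Clopper-Pearson, 95%) and densities Poisson. They cover counting error only, since there was 1 library on each side. The fold intervals do not allow for peaks having been selected for high ChIP tags over input. Any PCR copies that were kept are not independent molecules. Local tags are total tags divided by local fold. Peaks were placed by their midpoint. Densities and positions were tested with exact binomial tests at 0.05. Benjamini-Hochberg adjustment was made over the 2 class comparisons and over the 10 tests of single chromosomes. The position tests (end parts and first Mb) were not adjusted. Widened intervals multiply the counting variance by the variance-to-mean ratio of peaks in 1 Mb windows, taken within chromosomes. The density test and the recovery of input tags were tried on simulated data. Those data had independent peaks and the step already fitted, so they check the arithmetic and not these assumptions.

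The peaks named are, on each chromosome, those with most tags and highest fold, the 20 with the smallest p (ties by fold, then tags), those of both dense windows and runs of 3 or more linked by gaps of at most 10 kb. Members, windows, lists and tests were chosen with earlier results of these data known. Scripts ran in Python 3.11.15 with scipy 1.17.1, numpy 2.4.6, matplotlib 3.10.9 and pandas 2.3.3.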

Additional observations from a re-analysis of the deposited data

How the results depend on the processing

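Of 78 alternatives over 8 results, 68 kept the direction and the call of a tested result, or left an untested value close to that reported, and none reversed a direction. Sizes did move, in some cases past the widened intervals. Of the 78, 9 were chosen after the data were seen. The ratio of density to chromosomes 1 to 5 ran from 2.36 (without chromosome 17) to 2.60 (without chromosome 11) with 1 chromosome left out. It was 1.86 among scores of 12 or more, 1.78 at a local fold of at least 12 and 2.14 at a lower fold limit above 8. All were under the widened interval of 2.15 to 2.82. At 10 or more tags it was 2.22, and at a score of at least 10 it was 2.25, both inside that interval. The ratio to chromosomes 21 to 28 ran from 0.60 to 0.662 with 1 chromosome left out. It was 0.435 at a score of at least 10, 0.423 at 12 and 0.436 at 10 or more tags, all under the widened interval of 0.513 to 0.765. With 1 chromosome left out, the excess in the end parts ran from 1.24 (without chromosome 11) to 1.42 (without chromosome 20). It reached 1.48 among scores of 10 or more and 1.44 in the outer 5% at each end. Chromosomes 11 and 13, which had the largest shares, were not left out together, so these ratios do not show an excess beyond them. The excess in the first Mb missed the threshold in the 50% of the list with the smallest p (1.32, exact binomial p = 0.106), at a fold of at least 8 (1.23, p = 0.116), at a score of at least 10 (1.68, p = 0.0528), with peaks within 10 kb merged (1.28, p = 0.0546) and without chromosome 11 (1.18), 13 (1.12) or 17 (1.26). At a score of at least 10, 0 of the 10 chromosomes passed the exact binomial test, against 4 in the full list, and 3 passed without adjustment. Only 132 peaks were tested there. The median fold was 12.07 over the local 10 kb, against 13.21 over input, which is a different measure. With the score in place of total tags, 63.5% of members had a lower fold limit above 4. The share of all listed peaks under that rule is not given here. The 60.3% of all listed peaks was found with total tags and cannot be set against it. No paired analysis was possible because the study has only 1 ChIP and 1 input library. Low tag numbers limit every comparison of single peaks.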

Other observations

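Peaks on chromosomes 11 to 20 also occurred in close groups. Linked by gaps of at most 10 kb, 160 of the 806 (19.9%) had a neighbour, in 66 pairs and 9 runs of 3 or more, against 9.39% on chromosomes 1 to 5 and 22.6% on chromosomes 21 to 28. Denser peaks lie closer by number alone, and this was not tested. The members' longest run, on chromosome 15 from 8089376 to 8106644, had 4 peaks of 6 to 9 ChIP tags with folds of 7.77 to 22.65. Runs were not longest here: the longest had 14 peaks on chromosomes 1 to 5 and 3 on chromosomes 21 to 28. The tightest run lay on chromosome 14 from 6407418 to 6410115, where 3 peaks within 2.70 kb held 9, 10 and 9 ChIP tags against 5, 13 and 11 input tags. Another on chromosome 17, from 9325944 to 9329261, had 3 peaks of 9 to 10 tags within 3.32 kb, with folds from 5.86 to 26.96. The run on chromosome 14 from 14257505 to 14267055 held most tags, 40 over 3 peaks, and ended in adjoining peaks of 15 and 17 tags with folds of 16.65 and 6.98. On chromosome 18 a run from 9451679 to 9457337 had folds of 13.21 to 26.42. The other 4 runs lay on chromosome 12 (18466021 to 18478730), chromosome 13 (15893862 to 15905159), chromosome 17 (1355866 to 1363621) and chromosome 19 (8739027 to 8751305), with 7 to 9 ChIP tags per peak.

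In 9 pairs, on 6 chromosomes, the centres were under 1 kb apart. Within some pairs the ChIP tags were close and the input differed. The width of the window used for input is not stated, which limits this comparison. On chromosome 12, peaks at 5040919 to 5041121 and 5041407 to 5041609, 488 bp apart, had 6 and 8 ChIP tags but 10 and 1 input tags, so the folds were 11.32 and 151.00. Both differed on chromosome 15, where peaks at 1889160 to 1889362 and 1890100 to 1890302 had 7 and 12 ChIP tags against 19 and 6 input tags, with folds of 6.95 and 37.75. On chromosome 14, peaks at 2370268 to 2370470 and 2370840 to 2371042 had 7 and 8 ChIP tags against 5 and 7 input tags, with folds of 26.42 and 21.57.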
